A study of Mus musculus with 16 samples.

Results

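RNA of the ileum, the last stretch of the small intestine, was sequenced from 4 mice without Neurog3 in their gut epithelium and from 4 controls. These are 8 of the 16 libraries of the series, namely those whose column name carries no duodenal mark; the other 8 hold the duodenum of the same animals. The genotype was read from the animal's name, which begins with NFVCT in mutants and with NF alone in controls. Mutants were Neurog3f/f; Villin-CreERT2, that is, both Neurog3 alleles were floxed and a recombinase that tamoxifen activates was driven by the Villin promoter, which is active in intestinal epithelial cells. Controls were Neurog3f/f without the transgene. All were adult males of a C57BL/6N background on standard chow, and the tissue was collected at 18 weeks from tamoxifen. As no control carried the transgene, its effect and that of Neurog3 loss cannot be told apart, and the labels do not say separately that controls received tamoxifen. Which layers of the gut wall were taken is not stated.

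Enteroendocrine cells are single hormone cells scattered through the gut lining. They taste the contents of the gut and release peptides or serotonin. Neurog3 is a transcription factor that progenitors of the crypt switch on briefly and need to become enteroendocrine cells. In the ileum the best known types are the L cell, which makes the products of the proglucagon gene Gcg and peptide YY, the N cell, which makes neurotensin, and the serotonin-making enterochromaffin cell.

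Total counts ran from 8213889 to 25617964 in the 8 libraries. The tissue label held in all of them: the bile acid transporter gene Slc10a2 was at 919 to 1622 CPM (counts relative to the scaled size of the library, here scaled over all 16 libraries) against 0.662 to 3.28 in the duodenum, and the duodenal transcription factor gene Pdx1 at 0.674 to 2.80 against 35.8 to 78.4. Smooth muscle RNA moved with the genotype: the summed level of 20 contractile genes was 5137 to 6907 CPM in controls and 7898 to 10558 CPM in mutants, without overlap, and 11 of the 20 were called higher (5 without NF152 or NFVCT38, 6 without NF32, 7 without NFVCT153). Des, the muscle intermediate filament gene, went from 381 ± 77.9 to 747 ± 162 CPM (SD, n = 4). With the smooth muscle level as a covariate, which separates the genotypes by itself, 22 genes were called in place of 490. Of the lists below, 5 hormone genes, 2 granule genes, Sis, Ces1f, Cyp2d34, Gstm3 and Esr1 were then called. So were Adgrg4 and Gfra3 of the receptor and channel list, 1 villus tip gene and 1 gene of the unfolded protein response. In the transcription factor, tuft, goblet, Paneth, barrier, glycolysis, fatty acid synthesis, peptidase, interferon, MHC class II and lymphocyte lists 0 members were called. The median log2 fold change with and without the covariate was 0.74 and 0.71 for tuft, 1.12 and 0.87 for barrier, 0.39 and 0.31 for goblet, 0.42 and 0.50 for Paneth and -0.71 and -0.47 for factor genes. It was 0.19 and 0.34 for glycolysis, 0.26 and 0.45 for fatty acid synthesis, -0.44 and -0.54 for peptidase, -0.52 and -0.93 for interferon, -0.68 and -0.92 for MHC class II and -0.38 and -0.999 for lymphocyte genes. The part of smooth muscle in those lists was not tested. Summed levels of 14 epithelial genes overlapped (12724 to 15746 CPM in controls, 12822 to 16101 in mutants). The summed level of 15 pancreatic acinar genes was 1127 to 8238 CPM in controls and 471 to 5384 CPM in mutants and so varied widely within each genotype; with it as a covariate 332 genes were called, 309 of them among the 490.

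Across the ileum, 490 of 14951 tested genes were called (3.28%, at a Benjamini-Hochberg or BH adjusted p under 0.05 in edgeR's quasi-likelihood test), 264 of them higher in mutants (1.77%) and 226 lower (1.51%). The median log2 fold change over all tested genes was -0.00605. In 255 of the 264 and 218 of the 226 the values of the 2 genotypes did not overlap, while over all tested genes 5.06% had every mutant above every control and 4.87% every mutant below. With library totals as the scaling, which moves the median to -0.109, the split was 162 higher and 379 lower (29.9% higher, against 53.9%). At least 2-fold changes numbered 82 upward and 112 downward. Leaving out NF17, NF32 or NFVCT38 brought the count to 293, 277 and 272. Per-library values are given throughout in the order NF17, NF29, NF32 and NF152 for controls and NFVCT27, NFVCT38, NFVCT153 and NFVCT190 for mutants, in CPM scaled over the 8 ileal libraries. Where 2 sets of values are joined by "against", the controls come first. Changes are on the log2 scale, mutant over control, with the standard error (SE). The lists below were drawn up with earlier results of these data known, so counts of called members describe them only. The shares to set beside each count are those over all tested genes, 1.77% higher and 1.51% lower.

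**Figure D1:**
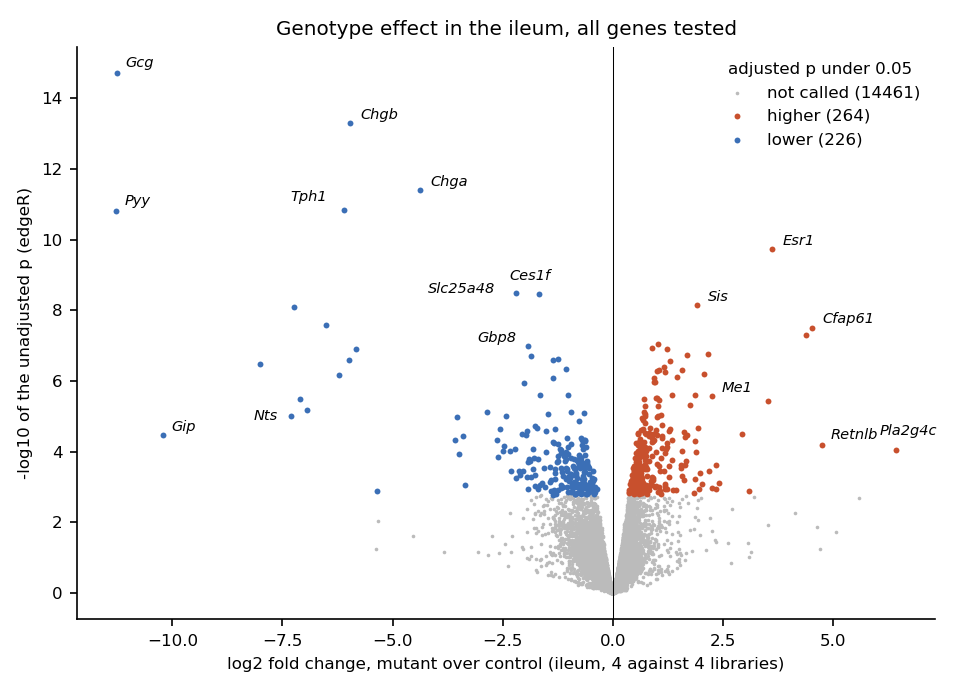
Log2 fold change (x axis) against -log10 of the unadjusted p (y axis) for the 14951 genes tested in the ileum, with called genes in colour. Endocrine genes such as Gcg, Pyy and Chgb lie far to the left, while Pla2g4c, Retnlb, Cfap61 and Esr1 lie far to the right.

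Among single genes outside the lists below, Cfap61, a gene of motile cilia, had 0.116, 0.196, 0.404 and 0.0461 CPM in controls and 3.91, 3.96, 3.08 and 3.91 CPM in mutants (log2 fold change 4.52, SE 0.42, BH-adjusted p = 3.88e-05). Slc25a48, a mitochondrial carrier, had 24.2, 28.9, 24.6 and 27.2 CPM against 3.53, 6.11, 6.66 and 6.21 CPM (log2 fold change -2.20, SE 0.17, BH-adjusted p = 6.61e-06). Afp, the alpha-fetoprotein gene, went from 6.52, 1.57, 4.35 and 5.39 CPM in controls to 0.126, 0.0671, 0.123 and 0 CPM in mutants, with 3 reads left over the mutants (1.22% of control, exact 95% interval 0.25 to 3.59%). All 3 kept their calls without any 1 library and with the smooth muscle covariate.

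Neurog3 (ENSMUSG00000044312) itself had 27, 13, 8 and 23 counts in the control libraries and 0 counts in each mutant library, which puts it at least 16.9-fold lower against a floor of 3 counts over the group (at least 10.8-fold without NFVCT190, the deepest mutant library). Whether the counted reads cover the floxed part cannot be read from a gene-level table.

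Hormone genes had the lowest median change of the lists described. Of 12 tested hormone genes 10 fell and 0 rose, against 1.51% of all genes lower. Their median change was -6.31, and 9 or 10 fell when any 1 library was left out. In bulk tissue, fewer cells of a type and less RNA per cell cannot be told apart. Gcg had 86.4, 62.4, 62.7 and 76.1 CPM in controls and 0, 0, 0 and 0.0575 CPM in mutants, where a single read in NFVCT190 was all that was counted (0.0272% of the control level, exact 95% interval 0.000689 to 0.152%, counting error only). Pyy, the gene of peptide YY, had 25.1, 16.4, 21.6 and 22 CPM in controls and 0 counts in every mutant, lower by at least 359-fold (229.9-fold with NFVCT190 left out).

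Nts, the neurotensin gene, had 66.6, 50.2, 38.2 and 101 CPM in controls and 0, 0.201, 0.123 and 0.92 CPM in mutants. It kept the most in NFVCT190, still far under the lowest control. Gip, the gene of the incretin made mainly by duodenal K cells, reached 12.4, 4.71, 8.09 and 15.2 CPM in control ileum and was at 0 counts in mutants (lower by at least 185-fold, and at least 118-fold with NFVCT190 left out). Cck and Ghrl, for cholecystokinin and ghrelin, kept 0.433% (0.0109 to 2.43%) and 0.739% (0.0186 to 4.17%) of their control levels, on 1 mutant read each. Tph1, the enzyme that makes serotonin in enterochromaffin cells, went from 10.4, 10.2, 9.4 and 11.3 CPM in controls to 0, 0.134, 0.123 and 0.23 CPM in mutants (log2 fold change -6.10, SE 0.32, BH-adjusted p = 4.77e-08).

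A second set of hormone genes kept part of its level. Sct, the secretin gene, had 29.7, 21.1, 21.8 and 23.3 CPM in controls and 8.32, 6.51, 3.82 and 7.53 CPM in mutants (log2 fold change -1.87, SE 0.20, BH-adjusted p = 0.000143). Sst, the somatostatin gene, which enteric neurons also use, had 15.6, 11.1, 10.9 and 14.5 CPM against 4.16, 3.49, 3.95 and 6.9 CPM (log2 fold change -1.48, SE 0.22, BH-adjusted p = 0.00217). Tac1, the substance P precursor, likewise made by neurons, had 7.95, 18.9, 8.19 and 10.6 CPM against 2.52, 4.63, 5.18 and 4.66 CPM (log2 fold change -1.39, SE 0.30, BH-adjusted p = 0.0284), and was no longer called in 5 of the 8 fits that left out 1 library (largest adjusted p 0.0807). Mutants lay below controls in all of these, without overlap. The remaining tested members were neuropeptide genes: Penk was at 4.07 ± 0.57 CPM in controls and 3.99 ± 1.04 in mutants (BH-adjusted p = 0.987), and Gal at 2.57 ± 0.294 CPM against 2.83 ± 0.526 CPM (BH-adjusted p = 0.875). Of the members too low to test, Insl5, the colonic L cell peptide, had 16, 5, 7 and 19 counts in controls and 0 in mutants (lower by at least 11.2-fold, and at least 7.18-fold with NFVCT190 left out), while Iapp had 22, 9, 1 and 21 counts in controls and 3, 0, 0 and 6 in mutants. Gast had 0 counts in all 8 libraries, Ucn3 had 3 in all controls and 1 in all mutants, and Mln was not used here.

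**Figure D2:**
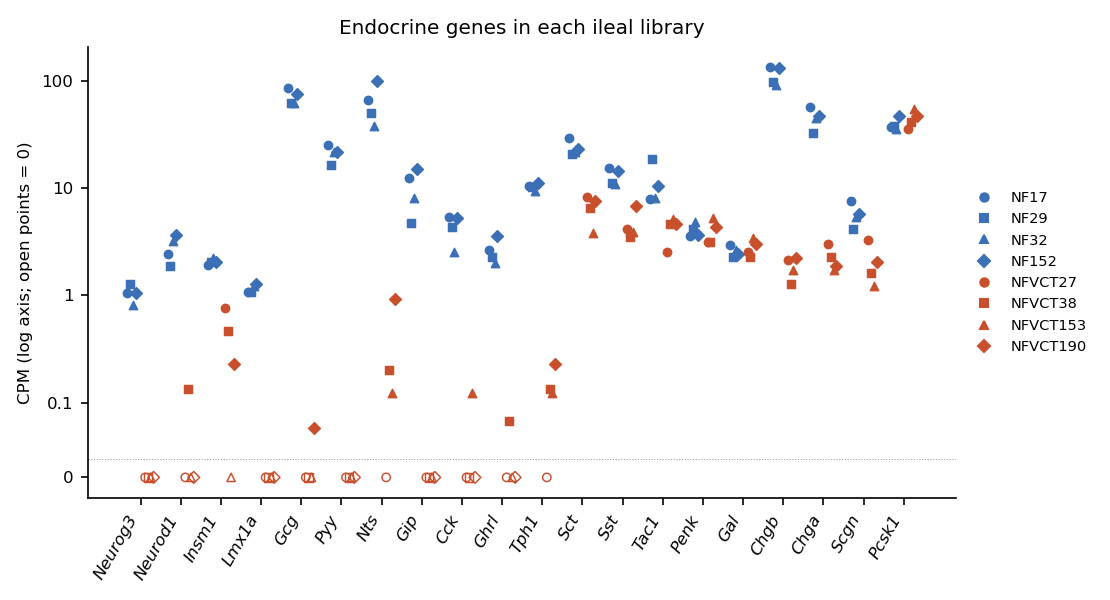
CPM on a log axis (y) of 20 endocrine genes (x) in each of the 8 libraries, controls in blue and mutants in orange, 1 symbol per animal, open symbols at the bottom for 0. From Neurog3 to Tph1 every mutant lies below 1 CPM and many at 0, while Sct, Sst and Tac1 keep a level and Penk, Gal and Pcsk1 overlap.

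The promoter window of Gcg, shown because no other gene fell with a smaller p, was read from the RefSeq promoter table (build GRCm38.p6, 250 bases before the start of the gene, chr2:62483654-62483903, minus strand). Capitals mark CAGATG, an E-box of the kind that basic helix-loop-helix factors such as Neurod1 bind, searched on both strands, and TATAAA, searched on the sense strand.
Gcg: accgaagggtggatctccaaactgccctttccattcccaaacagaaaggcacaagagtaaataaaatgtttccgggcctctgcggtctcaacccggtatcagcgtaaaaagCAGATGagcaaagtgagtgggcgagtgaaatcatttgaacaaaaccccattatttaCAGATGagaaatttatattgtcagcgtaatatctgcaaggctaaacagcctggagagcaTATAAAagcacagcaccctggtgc
The E-box begins 139 and 83 bases before the start. It occurs in 14.4% of the 32851 windows of the table and in 7 of the 21 windows listed for the hormone genes (33.3%), and TATAAA occurs in 7.59% and in 3 of the 21. A match is a description of the letters only.

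Of 17 tested enteroendocrine transcription factor genes 7 fell and 0 rose (3 without NF17 or NF152, where Neurog3, Isl1, Rfx6 and Myt1 were too low to be tested). Neurod1, which acts just after Neurog3, had 2.44, 1.87, 3.24 and 3.64 CPM in controls and 0, 0.134, 0 and 0 CPM in mutants, 1.45% of control (exact 95% interval 0.174 to 5.3%). Lmx1a, a factor of serotonin cells, had 1.09, 1.08, 1.21 and 1.29 CPM in controls and 0 counts in mutants (lower by at least 18.8-fold, and at least 12.1-fold with NFVCT190 left out). Insm1, an early endocrine factor, went from 1.94, 2.06, 2.22 and 2.03 CPM in controls to 0.757, 0.47, 0 and 0.23 CPM in mutants (log2 fold change -2.50, SE 0.47, BH-adjusted p = 0.00923), with 0 in NFVCT153 only. Isl1 (-3.59, BH-adjusted p = 0.00624), Rfx6 (-3.53, BH-adjusted p = 0.00229) and Myt1 (-1.82, BH-adjusted p = 0.0179; lost without NF32, NFVCT38 or NFVCT190), which act in endocrine cells, completed the set with Neurog3. Below the test's filter, Nkx2-2 and Pax6 had 29 and 51 counts summed over the 4 controls and 0 and 1 over the 4 mutants. Pax4 had 9, 2, 0 and 0 counts in the control libraries and Neurod2 had 0, 3, 0 and 1, and both had 0 in mutants. The 10 tested factors that other cells share were not called: St18, Etv1, Hhex and Runx1t1 had changes of -0.37, -0.30, -0.92 and -0.47, and Mnx1, Foxa1, Foxa2, Prox1, Sox4 and Tox3 had 0.22, 0.37, 0.43, 0.13, 0.058 and 0.19, with adjusted p from 0.352 to 0.902.

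Among genes of granules and their cargo the granins changed. Of 14 tested granule and processing genes 3 fell and 0 rose, in the full set and without any 1 library. Chgb, a granin that packs hormone granules, had 134, 98.5, 92.2 and 133 CPM in controls and 2.14, 1.28, 1.73 and 2.24 CPM in mutants (log2 fold change -5.96, SE 0.20, BH-adjusted p = 3.86e-10). Chga, its relative, had 57.3, 32.9, 45.2 and 47.1 CPM against 3.03, 2.28, 1.73 and 1.9 CPM (log2 fold change -4.37, SE 0.21, BH-adjusted p = 2.02e-08). Scgn, a calcium sensor of endocrine cells, had 7.56, 4.13, 5.36 and 5.76 CPM against 3.28, 1.61, 1.23 and 2.07 CPM (log2 fold change -1.51, SE 0.28, BH-adjusted p = 0.00942). The processing enzymes Pcsk1, Cpe and Pam, which neurons and other secretory cells also use, were at 36 to 47, 50.8 to 82.5 and 90.1 to 136 CPM in controls and 36.1 to 54.9, 64.4 to 89.9 and 124 to 152.8 in mutants. None of the 3 was called (BH-adjusted p = 0.602, 0.904 and 0.625).

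Of 16 exocytosis and excitability genes 3 fell and 1 rose. Vwa5b2 (-3.40, BH-adjusted p = 0.00529) and Rimbp2, a scaffold of release sites (-2.32, BH-adjusted p = 0.00936), fell the most, and Syt13, a synaptotagmin, fell by a smaller step (-0.85, BH-adjusted p = 0.0479, lost in 6 of 8 fits without 1 library). Syt7, another calcium sensor for release, rose from a control range of 29.7 to 35.4 CPM to a mutant range of 41.5 to 56.4 CPM (BH-adjusted p = 0.0191; lost without NF32, NF152 or NFVCT27). Without NF17 or NFVCT38 only 1 member fell. A further list held nutrient sensors and other receptors and channels of endocrine cells. Of its 11 tested members 3 fell, in the full set and without any 1 library. Adgrg4, an orphan adhesion receptor of serotonin cells, fell from 2.25, 1.57, 2.02 and 2.81 CPM to 0 counts (lower by at least 37-fold, and at least 23.7-fold with NFVCT190 left out). Ffar1, a receptor for long fatty acids, fell from 2.09, 1.18, 1.72 and 3.55 CPM in controls to 0.126, 0, 0 and 0 CPM in mutants. Gfra3 fell from 2.95, 1.77, 3.24 and 1.24 CPM in controls to 0.252, 0.201, 0.74 and 0.345 CPM in mutants (log2 fold change -2.64, SE 0.46, BH-adjusted p = 0.00624). Gpr119, a lipid sensor of L cells, Casr, the calcium sensor, and Asic5 were too low to test, with 35, 21 and 29 counts over the 4 controls and 0 over the 4 mutants. Cnr1, Ffar4 and Lpar5, which have wider expression, had changes of 0.19, 0.50 and -0.0092 and were not called. Among 12 tested receptors for gut hormones, Tacr1, a receptor for substance P, was the single one called, with 3.88, 3.24, 5.16 and 3.87 CPM in controls and 14, 8.66, 9.0 and 8.28 in mutants (log2 fold change 1.30, SE 0.21, BH-adjusted p = 0.00431). The receptor of glucagon-like peptide 2, Glp2r, was at 20.02 ± 3.26 CPM in controls and 25.7 ± 1.39 in mutants (BH-adjusted p = 0.179).

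In the other secretory lineages all calls were upward. Of 13 tested fate regulators 2 rose: Atoh1, the factor that commits cells to secretory fates, from a control range of 25.9 to 35.6 CPM to a mutant range of 39.98 to 45.2 CPM (BH-adjusted p = 0.0401), and Spdef, a goblet and Paneth factor, from a control range of 18 to 24.9 CPM to a mutant range of 26.3 to 36.9 CPM (BH-adjusted p = 0.0296). These calls were lost in 7 and 6 of the 8 fits without 1 library and with library totals as the scaling. Notch1 and Notch2 had changes of -0.041 and -0.12 and were not called.

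Tuft cells, chemosensory cells that signal to type 2 immunity, had 8 of 17 tested markers higher and 0 lower (median 0.71), against 1.77% of all genes higher. Trpm5, the cation channel of taste signalling, had 12, 15.7, 15.8 and 13.3 CPM in controls and 27.5, 33.1, 28.6 and 19.4 CPM in mutants (log2 fold change 0.94, SE 0.16, BH-adjusted p = 0.00624). Avil, an actin-binding protein of tuft cells, had 11.2, 7.17, 13.5 and 9.91 CPM against 27.2, 23, 23.3 and 17.1 CPM (log2 fold change 1.11, SE 0.19, BH-adjusted p = 0.00541). Alox5, which starts leukotriene synthesis, had 4.62, 3.63, 4.95 and 4.61 CPM against 12.2, 12.4, 10.7 and 6.09 CPM (log2 fold change 1.20, SE 0.22, BH-adjusted p = 0.00882). Sh2d7 rose as well (1.09, BH-adjusted p = 0.00218), as did Pou2f3, the tuft cell master factor, and Rgs13. The genotypes did not overlap in Trpm5, Avil, Alox5 and Sh2d7, and NFVCT190 had the lowest mutant value in each of them. The calls of Dclk1 (0.70, BH-adjusted p = 0.0337) and Sh2d6 (0.96, BH-adjusted p = 0.0379) were lost in 6 of 8 fits without 1 library, and Ptgs1 and Plcb2 were not called (0.25 and 0.071). The list had 4 called members without any of NF17, NF29, NF32, NFVCT27, NFVCT38 or NFVCT153, and 4 with library totals as the scaling or with the acinar covariate.

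Of 23 tested genes of the type 2 and barrier response 8 rose and 0 fell (median 0.87), against 1.77% of all genes higher. The list, chosen with earlier results of these data known, held the 2 largest called increases of the ileum. Pla2g4c, a cytosolic phospholipase A2, had 17.5, 48.5, 19.9 and 24 CPM in controls and 3657, 2513, 2586 and 650.2 CPM in mutants (log2 fold change 6.43, SE 0.73, BH-adjusted p = 0.00901). Even its lowest mutant, NFVCT190, lay above the highest control by more than the whole control range. Retnlb, a goblet cell protein secreted against worms and bacteria, had 4.27, 3.14, 3.24 and 1.29 CPM against 124, 89.6, 73.5 and 35.8 CPM (log2 fold change 4.75, SE 0.54, BH-adjusted p = 0.00763). Sprr2a3, a small proline-rich protein, had 21.3, 45.1, 23.5 and 16 CPM against 369.9, 193, 241 and 84.6 CPM (log2 fold change 3.08, SE 0.56, BH-adjusted p = 0.0436).

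The gasdermin C genes, which code for pore-forming proteins, moved alongside. Gsdmc4 had 62.1, 74.3, 82.7 and 62.6 CPM in controls and 443, 313, 250.4 and 132 in mutants (log2 fold change 2.02, SE 0.36, BH-adjusted p = 0.0345), and Gsdmc2 had 19.4, 25.6, 24.8 and 19.6 CPM against 183, 108, 86.1 and 48.1 CPM (log2 fold change 2.25, SE 0.41, BH-adjusted p = 0.0397). These are close copies, so that reads could be split between them, which also holds for the Sprr2a genes. In Pla2g4c, Retnlb, Sprr2a3, Gsdmc2 and Gsdmc4 the order of the extremes was the same, NFVCT27 the highest and NFVCT190 the lowest mutant, while the controls overlapped without a shared order. Sprr2a3, Gsdmc2 and Gsdmc4 lost the call in 6 of the 8 fits without 1 library (largest adjusted p 0.129, 0.111 and 0.0999). Ang4, an antimicrobial ribonuclease, rose from 763, 581, 678 and 711 CPM in controls to 2207, 2234, 1879 and 1233 CPM in mutants (log2 fold change 1.47, SE 0.17, BH-adjusted p = 0.000321). Mptx2, a pentraxin of Paneth cells, rose from a control range of 544 to 955 CPM to a mutant range of 1159 to 1411 CPM (log2 fold change 0.90, SE 0.15, BH-adjusted p = 0.00573). Duox2, an epithelial oxidase, was not called: it had 247, 737, 292 and 179.6 CPM in controls, with NF29 at the level of the mutants, and 1157, 778, 1197 and 452 CPM in mutants (BH-adjusted p = 0.329). The list, which also holds Gsdmc3, had 4 called members without NF17, NF32, NF152, NFVCT38 or NFVCT153 and with the acinar covariate.

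**Figure D3:**
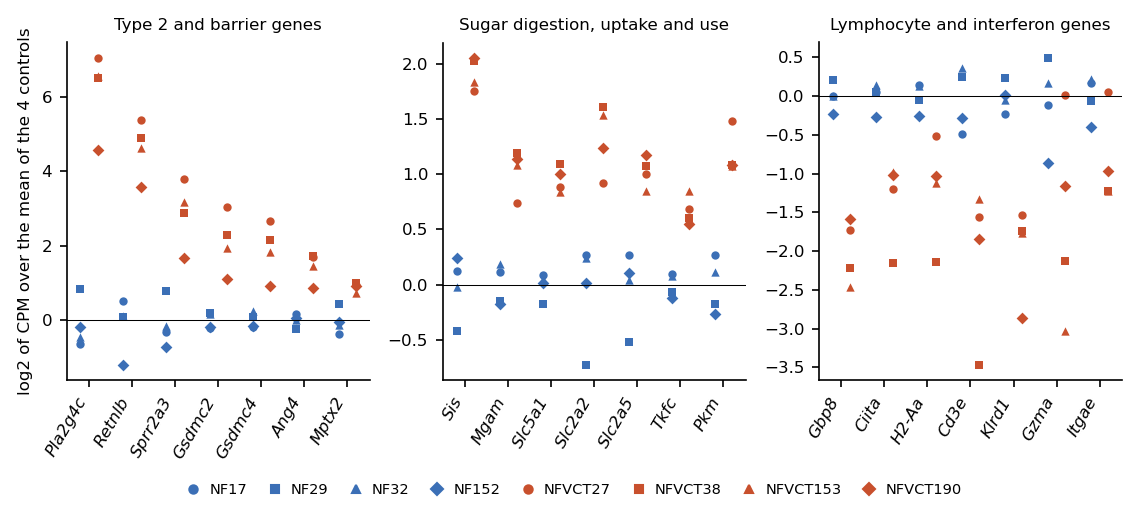
Log2 of each library's CPM over the mean of the 4 controls (y axis) for 21 genes (x axis), controls in blue and mutants in orange, 1 symbol per animal. In the left panel NFVCT190 is the lowest mutant in 6 of the 7 genes, in the middle panel all mutants lie above all controls, and in the right panel NFVCT27 lies among the controls for Gzma and Itgae.

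Among goblet cell genes 5 of 21 rose and 0 fell (median 0.31), against 1.77% of all genes higher. They were Retnlb, Spdef, Clca1, Spink4 and Bcas1. Clca1, a protease that loosens mucus, had 3528, 3434, 2953 and 3181 CPM in controls and 6343, 7478, 6722 and 4221 CPM in mutants (log2 fold change 0.92, SE 0.16, BH-adjusted p = 0.00645), and Spink4 had 514, 487, 447 and 507 CPM against 874, 973, 708 and 705 CPM (log2 fold change 0.74, SE 0.12, BH-adjusted p = 0.00506). The mucus proteins Fcgbp and Zg16 were not called, at 6962 ± 1525 and 3143 ± 506 CPM in controls and 7535 ± 915 and 3892 ± 776 in mutants. Of 18 tested Paneth cell genes 5 rose and 0 fell, against 1.77% of all genes higher. The count was 3 without NFVCT27, 2 without NF32, NF152 or NFVCT38, and 2 with library totals as the scaling. The 5 were Ang4, Cd24a (0.63, BH-adjusted p = 0.00919), Defa26, Defa30 and Pla2g2a. Defa30, a defensin whose reads could be shared with near-identical copies, went from a control range of 1035 to 1546 CPM to a mutant range of 1593 to 2006 CPM (BH-adjusted p = 0.0422), and its call was lost in 6 of 8 fits without 1 library, as were those of Defa26 and Pla2g2a. Lyz1, the Paneth cell lysozyme, was at 11317, 9064, 7842 and 9337 CPM in controls and 9726, 12314, 6493 and 10992 CPM in mutants, an overlap of nearly the whole range (BH-adjusted p = 0.911).

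Of the 7 tested Reg family lectins, secreted antimicrobial proteins, 0 were called in edgeR (4 at an unadjusted p under 0.05, 1 higher and 1 lower in DESeq2 and 0 in limma-voom). Reg3b had 8649, 20751, 8151 and 10128 CPM in controls and 19568, 22888, 14387 and 28828 CPM in mutants (BH-adjusted p = 0.268), and Reg3g had 4805, 11523, 4576 and 5144 CPM against 10313, 11565, 9696 and 14083 CPM (BH-adjusted p = 0.232). NF29 alone among controls lay within the mutant range, and without it 2 members of the list were called higher (1 without NFVCT190).

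Of 23 tested cell cycle genes 0 were called in edgeR (1 at an unadjusted p under 0.05, 1 higher in DESeq2 and 0 in limma-voom, 1 called without NF29), with a median change of -0.14; Mki67 was at 352 ± 73.1 CPM in controls and 341 ± 61 in mutants. Of 23 tested stem cell and Wnt target genes 1 fell and 0 rose (2 fell without NF152 or NFVCT27). That gene was Olfm4, a secreted marker of crypt base cells, with 636, 701, 592 and 777 CPM in controls and 223, 341, 302 and 270.1 CPM in mutants (log2 fold change -1.25, SE 0.14, BH-adjusted p = 0.000158). The genotypes did not overlap in Olfm4, which kept its call without any 1 library. Among growth factor genes 3 of 25 rose (2 without NFVCT38): Igf1, made mainly by stromal cells in the gut (10.9 to 13.6 CPM in controls, 19.8 to 26.1 in mutants, log2 fold change 0.85, SE 0.14, BH-adjusted p = 0.00414), Ereg, the EGF receptor ligand epiregulin (16 to 22.2 CPM against 28 to 46.1 CPM, log2 fold change 0.97, SE 0.16, BH-adjusted p = 0.00443), and Igfbp2 (2.33, BH-adjusted p = 0.0158).

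All calls among genes of sugar digestion and uptake were upward. Of 16 tested members 8 rose and 0 fell (median 0.54), against 1.77% of all genes higher. When any 1 library was left out 6 to 8 were called higher, and without NF29 2 were called lower. In 5 of the 16 the log2 fold change lay below 0. Sis, the sucrase-isomaltase of the brush border, had 5908, 4046, 5362 and 6409 CPM in controls and 18295, 22132, 19404 and 22546 CPM in mutants (log2 fold change 1.92, SE 0.16, BH-adjusted p = 1.2e-05). Its lowest mutant lay far above its highest control, and it stayed called with the smooth muscle covariate (log2 fold change 1.95, BH-adjusted p = 0.0281). Mgam, the maltase-glucoamylase beside it, had 6186, 5151, 6501 and 5052 CPM against 9565, 13035, 12159 and 12613 CPM (log2 fold change 1.05, SE 0.14, BH-adjusted p = 0.00105).

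The transporters followed. Slc5a1, the sodium-glucose cotransporter SGLT1, had 2458, 2042, 2399 and 2339 CPM in controls and 4251, 4923, 4130.1 and 4626 CPM in mutants (log2 fold change 0.96, SE 0.12, BH-adjusted p = 0.000416). Slc2a2, the basolateral glucose transporter GLUT2, had 262, 132, 258 and 220.1 CPM against 413, 663, 632 and 515 CPM (log2 fold change 1.35, SE 0.23, BH-adjusted p = 0.0133; lost without NF152 or NFVCT153), and Slc2a5, the fructose transporter GLUT5, 66.9, 38.8, 57.1 and 59.6 CPM against 111, 117, 100.2 and 125 CPM (log2 fold change 1.03, SE 0.14, BH-adjusted p = 0.00145). NF29 was the lowest control in both. Tkfc, which carries fructose towards glycolysis, rose too (0.68, BH-adjusted p = 0.00237), as did Khk, the fructokinase. Treh and Lct, the trehalase and lactase genes, were not called (113 ± 27.8 CPM in controls and 101 ± 28.7 in mutants, and 567 ± 182 CPM against 391 ± 153.3 CPM). With the smooth muscle covariate Sis was the 1 member of the list still called, and the list median was 0.31 (0.54 without it). The changes of Mgam and Slc5a1 were then 0.75 and 0.94 and no longer called (BH-adjusted p = 0.442 and 0.206). Those of Slc2a2, Slc2a5 and Tkfc were 0.70, 0.96 and 0.34, likewise not called (BH-adjusted p = 0.645, 0.38 and 0.613).

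The windows of 250 bases before Sis, Mgam and Slc5a1 are shown because these genes act one after the other at the brush border and were all called higher. They were read from the RefSeq promoter table (GRCm38.p6): Sis at chr3:72967864-72968113 on the minus strand, Mgam at chr6:40628581-40628830 on the plus strand, and Slc5a1 at chr5:33103969-33104218 on the plus strand. Capitals mark CACGTG, a palindromic E-box that is part of the sites of the glucose-responsive factor made from Mlxipl, and CAGATG and TATAAA as for Gcg.
Sis: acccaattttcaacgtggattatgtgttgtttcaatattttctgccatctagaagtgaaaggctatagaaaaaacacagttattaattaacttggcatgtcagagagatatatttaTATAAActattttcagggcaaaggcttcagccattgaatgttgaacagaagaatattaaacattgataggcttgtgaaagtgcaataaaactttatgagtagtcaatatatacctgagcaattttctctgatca
Mgam: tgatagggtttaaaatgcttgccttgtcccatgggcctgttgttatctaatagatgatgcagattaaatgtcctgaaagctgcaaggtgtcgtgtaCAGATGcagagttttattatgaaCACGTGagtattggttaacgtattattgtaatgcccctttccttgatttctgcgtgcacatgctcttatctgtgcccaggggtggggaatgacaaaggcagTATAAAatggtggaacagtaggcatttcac
Slc5a1: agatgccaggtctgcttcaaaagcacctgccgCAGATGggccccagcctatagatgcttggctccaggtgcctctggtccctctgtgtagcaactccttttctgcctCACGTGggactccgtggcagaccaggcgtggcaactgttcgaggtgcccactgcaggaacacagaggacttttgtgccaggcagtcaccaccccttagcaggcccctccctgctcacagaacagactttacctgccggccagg
CACGTG begins 131 bases before the start of Mgam and 143 before that of Slc5a1 and is not among these letters of Sis. It occurs in 3 of the 15 windows of the sugar list (20%), the third being Khk, and in 6.02% of all 32851 windows. These matches, too, describe the letters only. Mlxipl was called higher, with 27.4, 20.1, 27 and 21.1 CPM in controls and 48.3, 41.8, 63.2 and 42.4 CPM in mutants (log2 fold change 1.03, SE 0.16, BH-adjusted p = 0.00227). Its part in the changes of the sugar genes was not tested.

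Glycolysis had 5 of 19 tested genes higher and 0 lower (median 0.34), against 1.77% of all genes higher. The count was 4 or 5 when any 1 library was left out. Pkm, a pyruvate kinase, had 343, 252, 309 and 238 CPM in controls and 799.8, 605, 603 and 605 CPM in mutants (log2 fold change 1.19, SE 0.14, BH-adjusted p = 0.000253), with NFVCT27 the highest. Pklr, the other pyruvate kinase gene (0.73, BH-adjusted p = 0.00229), Ldha, lactate dehydrogenase A (0.73, BH-adjusted p = 0.009), Gpi1, glucose phosphate isomerase (0.73, BH-adjusted p = 0.013), and Pfkl, phosphofructokinase (0.56, BH-adjusted p = 0.0202; lost without NF152, NFVCT27 or NFVCT38), rose by smaller amounts. Aldoa, Tpi1 and Pfkp were not called (0.47, 0.34 and 0.23). Of 13 genes of gluconeogenesis and the pentose phosphate pathway 3 rose and 0 fell, with or without any 1 library. Fbp1, the fructose bisphosphatase, had 17.6, 8.45, 11.1 and 18.4 CPM against 37.2, 51.3, 36.7 and 49.8 CPM (log2 fold change 1.63, SE 0.24, BH-adjusted p = 0.00546). Slc37a4, the glucose 6-phosphate carrier, had 29.4 to 43.4 CPM against 53.8 to 82.5 CPM (log2 fold change 0.83, SE 0.15, BH-adjusted p = 0.00862). Pcx, pyruvate carboxylase, had 34 to 45 CPM against 55.8 to 80.4 CPM (log2 fold change 0.72, SE 0.13, BH-adjusted p = 0.00829).

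Of 18 tested genes of fatty acid synthesis 5 rose and 0 fell (median 0.45), against 1.77% of all genes higher. They were Me1, Scd1, Thrsp, Mlxipl and Slc25a1. Without NF32 the count was 3 and without NF29 it was 9. In a fit of all 16 libraries of the series Me1, Scd1, Thrsp and Slc25a1 lost their calls, while Mlxipl kept its call. Me1, the malic enzyme that makes NADPH, had 9.0, 15, 10.7 and 10.2 CPM in controls and 64.3, 63.9, 51.9 and 31.4 CPM in mutants (log2 fold change 2.24, SE 0.24, BH-adjusted p = 0.000894). Scd1, the stearoyl-CoA desaturase, had 157, 301, 313 and 259 CPM against 608, 968, 979 and 748 CPM (log2 fold change 1.68, SE 0.23, BH-adjusted p = 0.00512). Every mutant lay above every control in both. Slc25a1, the citrate carrier, was no longer called in 4 of 8 fits without 1 library. Thrsp, a lipogenic regulator, went from a control range of 3.02 to 6.97 CPM to a mutant range of 9.74 to 20.3 CPM (BH-adjusted p = 0.0158; lost without NF32 or NF152). Fasn and Acly, the fatty acid synthase and the citrate lyase, were not called: Fasn had 194, 303, 248 and 139 CPM in controls, NF29 again the highest, and 314, 397, 436 and 298 in mutants (BH-adjusted p = 0.158), and Acly 205 ± 43.6 CPM against 299 ± 40.8 CPM (BH-adjusted p = 0.0557). The 25 cholesterol synthesis genes held 0 calls in edgeR (10 at an unadjusted p under 0.05, 4 higher in DESeq2 and 0 in limma-voom) with a median of 0.35, and 10 were called higher without NF29. Hmgcs1, the first enzyme committed to the pathway, had 481, 623, 404 and 499 CPM in controls and 493, 535, 854 and 646 in mutants.

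Fat handling moved in both directions. Of 29 tested genes of fat uptake and chylomicron assembly 2 rose and 3 fell. Dgat2, an enzyme of the last step of triglyceride synthesis, rose from 114, 99.3, 139 and 124 CPM in controls to 187, 256, 169 and 231 CPM in mutants (log2 fold change 0.83, SE 0.14, BH-adjusted p = 0.00527). Acsl3, an acyl-CoA synthetase, rose from 51.2, 40.7, 38.5 and 43.2 CPM in controls to 87.9, 91.2, 82.4 and 73.7 CPM in mutants (log2 fold change 0.94, SE 0.12, BH-adjusted p = 0.000344). The genes that fell were carboxylesterases, which cleave esters of lipids and drugs. Ces1f had 154, 152.7, 137 and 149 CPM in controls and 54.1, 55.1, 38.3 and 38 CPM in mutants (log2 fold change -1.68, SE 0.13, BH-adjusted p = 6.61e-06). Ces2a had 146, 95.6, 119.8 and 124 CPM against 49.9, 57.1, 37.2 and 46.5 CPM (log2 fold change -1.35, SE 0.15, BH-adjusted p = 0.000161). Ces1g had 8.38, 6.19, 7.99 and 20.3 CPM against 1.64, 2.22, 2.22 and 1.72 CPM (log2 fold change -2.47, SE 0.39, BH-adjusted p = 0.00789). Ces1f stayed called with the smooth muscle covariate (BH-adjusted p = 0.0421). The apolipoprotein genes Apob and Apoa1 were not called (0.23 and 0.049). In sterol handling 2 of 15 fell: Abca1, the cholesterol exporter, with 116, 101, 156 and 105 CPM against 65.5, 82.4, 62.1 and 79.8 CPM (log2 fold change -0.72, SE 0.14, BH-adjusted p = 0.0137), and Abcg1 (-0.74, BH-adjusted p = 0.0428; lost in 6 of 8 fits without 1 library). Npc1l1, the cholesterol importer, had 406, 367, 362 and 279 CPM in controls and 494, 426, 676 and 509 in mutants and missed the threshold (BH-adjusted p = 0.0509).

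**Figure D4:**
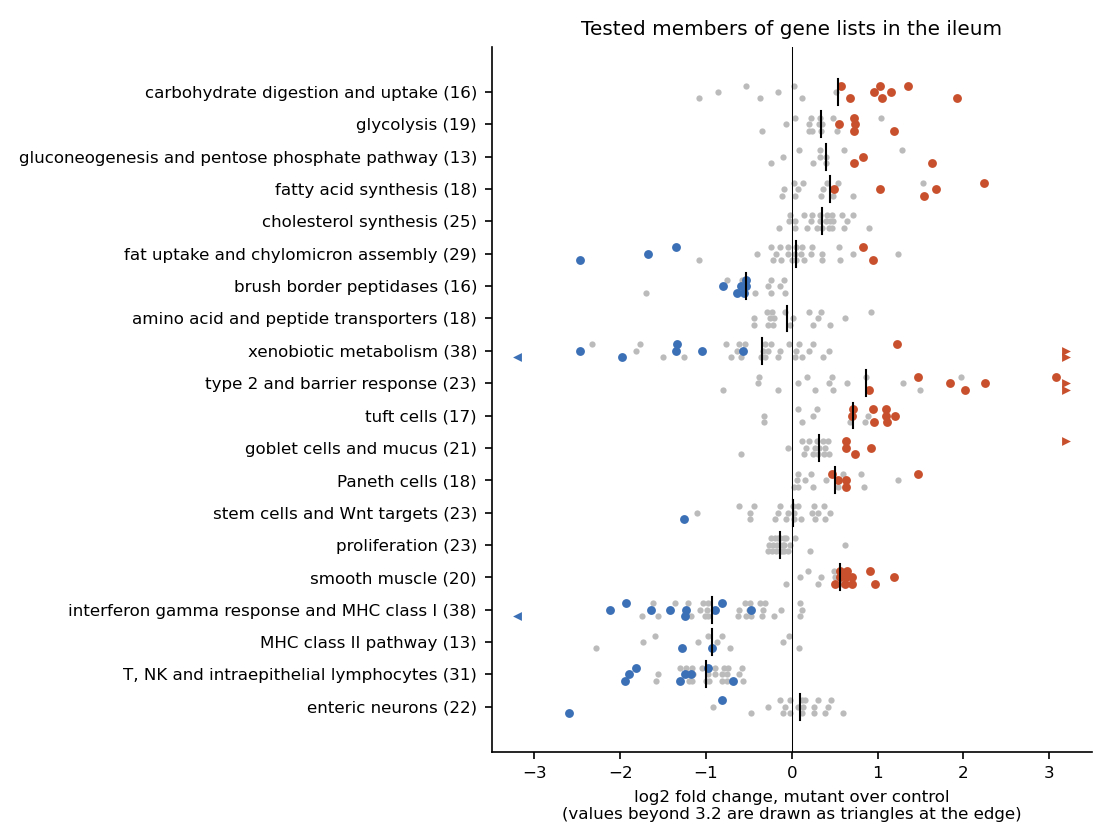
Log2 fold change (x axis) of every tested member of 20 gene lists (y axis, number tested in brackets), called genes in orange when higher and blue when lower, with the list median as a black line. Sugar, tuft, barrier and smooth muscle lists hold called genes on the right, and peptidase, interferon and lymphocyte lists on the left.

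Bile acid genes, the hallmark of the ileum, were mostly not called. Slc10a2, the importer, had 1277, 1224, 1193 and 1760.3 CPM in controls and 1375, 1367, 1008 and 1396 in mutants (BH-adjusted p = 0.862), and Slc51a, part of the exporter, 671 ± 71.7 CPM against 555 ± 50.6 CPM (BH-adjusted p = 0.248). Fabp6, the bile acid-binding protein, had 3477, 4548, 2178 and 3007 CPM in controls and 1412, 1015, 641 and 363 CPM in mutants. Every mutant lay below every control, but the spread was wide and Fabp6 did not pass (log2 fold change -1.95, SE 0.46, BH-adjusted p = 0.0864). Of 14 tested members only Abcb1a, the P-glycoprotein efflux pump, fell (718, 371, 697 and 636 CPM against 256, 234, 148 and 320.03 CPM, log2 fold change -1.34, SE 0.28, BH-adjusted p = 0.0418), and its call was lost in 5 of 8 fits without 1 library, NF17, NF32 and NF152 among them.

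All calls in the list of brush border and other peptidases were downward. Of 16 tested members 6 fell and 0 rose (median -0.54), against 1.51% of all genes lower. The count was 3 without NF17 or NFVCT38 and 4 with the acinar covariate. In a fit of all 16 libraries of the series each of the 6 lost its call. Anpep, aminopeptidase N, had 4422, 5252, 4623 and 3464 CPM in controls and 2183, 2251, 3284 and 2463 CPM in mutants (log2 fold change -0.80, SE 0.16, BH-adjusted p = 0.0133; lost without NFVCT38). Mep1b, the meprin beta subunit, had 1886, 2338, 1860.03 and 2021 CPM against 1209, 1479, 1332 and 1361 CPM (log2 fold change -0.59, SE 0.12, BH-adjusted p = 0.0137). Naaladl1 had 2415, 1717, 1960.1 and 1982 CPM against 1214, 1306, 1341 and 1339 CPM (log2 fold change -0.63, SE 0.12, BH-adjusted p = 0.0107). Lap3 (-0.54, BH-adjusted p = 0.0179; lost without NF17), Enpep and Xpnpep2 (-0.55, BH-adjusted p = 0.0394, and -0.54, BH-adjusted p = 0.0231; lost in 6 and 4 of 8 fits) fell as well. Mutants lay below controls in all 6, without overlap. Dpp4, which inactivates incretin hormones, was not called (1177 ± 112 CPM in controls and 1118 ± 146 in mutants). Of 18 tested amino acid and peptide transporters 0 were called in edgeR (3 at an unadjusted p under 0.05, 1 higher in DESeq2 and 0 in limma-voom; without NF29, 1 higher and 1 lower): the peptide transporter Slc15a1 was at 624 ± 135 CPM in controls and 510.3 ± 76.7 in mutants, and the neutral amino acid transporter Slc6a19 at 798 ± 35.6 CPM against 689 ± 93.5 CPM.

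Ion and mineral transport held a few called changes. Of 22 tested ion and water transport genes 2 rose and 0 fell (1 higher without NF17 or NF32, 2 lower without NF29, 1 lower without NFVCT38). Among them Atp1b1, a beta subunit of the sodium pump, rose by 0.52 (BH-adjusted p = 0.0165; lost without NF17 or NF32 and with library totals as the scaling). Of 12 calcium and phosphate genes, the phosphate transporter Slc20a1 rose (25.4, 26, 25.5 and 27.8 CPM in controls, 59.9, 53.2, 52 and 50.1 in mutants, log2 fold change 1.04, SE 0.11, BH-adjusted p = 9.87e-05) while the brush border phosphate transporter Slc34a2 (676, 746, 505 and 512 CPM against 331, 336, 423 and 389 CPM, log2 fold change -0.72, SE 0.14, BH-adjusted p = 0.0121) and the calcium pump Atp2b1 (-0.63, BH-adjusted p = 0.0065) fell (4 lower without NFVCT27). Among 38 tested genes of xenobiotic metabolism 7 fell and 3 rose (11 lower without NF29, 4 without NF152 or NFVCT27). Cyp2j6 rose from a control range of 121 to 169 CPM to a mutant range of 309.8 to 379 CPM (log2 fold change 1.23, SE 0.13, BH-adjusted p = 0.000104). Cyp2d34 (0.0776, 0.196, 0.202 and 0.138 CPM in controls, 3.15, 2.28, 2.22 and 4.31 in mutants, log2 fold change 4.39, SE 0.43, BH-adjusted p = 5.66e-05) and Cyp2d9 (3.53, BH-adjusted p = 0.00109) also rose, but belong to a family of close copies. Gstm3, a glutathione transferase, fell from 38.3, 20.04, 23.9 and 14.8 CPM in controls to 7.32, 6.98, 5.55 and 4.94 CPM in mutants (log2 fold change -1.98, SE 0.28, BH-adjusted p = 0.00512). Cyp2c55, Aldh1a1 and Abcg2 fell as well, beside Ces1g, Ces2a and Abcb1a given above. Cyp2c55 had 149.97, 10.3, 89.7 and 103 CPM in controls and 3.15, 2.48, 2.96 and 0.747 in mutants (BH-adjusted p = 0.0436), and it and Aldh1a1 lost their calls in 7 and 6 of 8 fits without 1 library.

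All calls among lymphocyte and interferon genes were downward. Of 38 tested genes of the interferon gamma response and MHC class I 10 fell and 0 rose (median -0.93). Over all tested genes 1.51% were lower. The count was 2 without NF32, 4 without NFVCT153, 5 without NF17 and 6 without NF29 or NFVCT38, and 15 with library totals as the scaling. Gbp8, an interferon-induced GTPase, had 15, 17.3, 15 and 12.7 CPM in controls and 4.54, 3.22, 2.71 and 5.0 CPM in mutants (log2 fold change -1.93, SE 0.20, BH-adjusted p = 0.000102). Gbp4 had 10.6, 15.1, 12 and 8.16 CPM against 4.79, 4.16, 3.7 and 6.44 CPM (log2 fold change -1.24, SE 0.22, BH-adjusted p = 0.00721). Gbp5, Gbp6, Tgtp2 and H2-Q2 were among the others. Gbp5 was lost without NF32, Gbp6 without NF32 or NFVCT153, Tgtp2 without NF17, NF32 or NFVCT38, and H2-Q2 in 5 of 8 fits without 1 library. Ciita, the master switch of MHC class II, had 60.8, 60.7, 64.8 and 48.7 CPM against 25.6, 13.2, 29.7 and 29 CPM (log2 fold change -1.27, SE 0.23, BH-adjusted p = 0.0142; lost without NF32), with NFVCT38 the lowest. H2-Aa, a class II chain that Ciita controls, had 1349, 1173, 1334 and 1022 CPM against 853, 277, 561 and 599 CPM and missed the threshold (log2 fold change -1.09, SE 0.30, BH-adjusted p = 0.114). Of 13 tested class II genes 2 fell, Ciita and H2-Eb1 (-0.92, BH-adjusted p = 0.0382; lost in 6 of 8 fits), with 0 without NF32, 1 without NF17, NF29, NF152, NFVCT153 or NFVCT190, 5 without NFVCT27 and 4 without NFVCT38.

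Of 31 tested genes of T cells, NK cells and intraepithelial lymphocytes 8 fell and 0 rose, against 1.51% of all genes lower. All 31 changes were below 0 (median -0.999). Summed over the list, the level was 275, 336, 317 and 239.8 CPM in controls and 257, 91.7, 84.1 and 143 CPM in mutants. NFVCT27 lay among the controls, and without it 14 members were called, against 5 without NF32 and 4 without NFVCT38. The T cell receptor subunit gene Cd3e had 2.64, 4.42, 4.75 and 3.04 CPM in controls and 1.26, 0.336, 1.48 and 1.03 CPM in mutants (log2 fold change -1.90, SE 0.38, BH-adjusted p = 0.0128). Klrd1, a receptor of NK cells and related T cells, had 2.48, 3.44, 2.83 and 2.95 CPM against 1.01, 0.873, 0.863 and 0.402 CPM (log2 fold change -1.94, SE 0.32, BH-adjusted p = 0.00452). Lck, a kinase at the T cell receptor, and Cd5 fell too (-1.24, BH-adjusted p = 0.0112, and -1.82, BH-adjusted p = 0.00882), as did Cd4, Il2rb and the receptor segments Trac and Tcrg-C1 (both lost without NF32 or NFVCT38, Trac also without NF152 and Tcrg-C1 without NF17). The granzyme gene Gzma had 73.1, 112, 89 and 43.8 CPM against 80.5, 18.2, 9.74 and 35.5 CPM, and Itgae, the integrin of lymphocytes within the epithelium, 32.8, 27.7, 33.8 and 22 CPM against 30.1, 12.5, 12.5 and 14.8 CPM. In both the NFVCT27 value lay within the control range, and neither was called (BH-adjusted p = 0.5 and 0.261). Il18, an epithelial cytokine, was the only one called of 15 epithelial signals to these lymphocytes, and it rose (42.1, 48, 35.9 and 47.1 CPM in controls, 75.9, 136, 83.3 and 73.8 in mutants, log2 fold change 1.09, SE 0.19, BH-adjusted p = 0.0122). Of 14 tested genes of B cells, plasma cells and IgA transport 0 were called in edgeR (4 at an unadjusted p under 0.05, 1 lower in DESeq2 and 0 in limma-voom; 2 lower without NF152): Igha was at 2351 to 6711 CPM in controls and 4785 to 6498 in mutants, and Pigr, which carries IgA across the epithelium, at 4833 ± 815 CPM against 4848 ± 587 CPM.

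Of 22 tested genes of enteric neurons 2 fell and 0 rose, both neuropeptides. Vip had 23.6, 17.9, 20.5 and 24.9 CPM in controls and 11.6, 11.7, 10.1 and 15.9 CPM in mutants (log2 fold change -0.81, SE 0.16, BH-adjusted p = 0.0131). Npy had 1.63, 0.884, 1.11 and 1.24 CPM against 0.126, 0.201, 0 and 0.345 CPM (log2 fold change -2.60, SE 0.51, BH-adjusted p = 0.0119). Without NF17 or NF152, 1 of them was called, in fits where Npy was not tested. The general neuron genes Uchl1 and Prph were at 5.89 to 9.1 and 5.86 to 7.79 CPM in controls and 5.55 to 8.8 and 5.5 to 9.77 in mutants (BH-adjusted p = 0.976 and 0.842). Lists of enteric glia, fibroblasts, interstitial cells of Cajal, endothelium, adipocytes and pancreatic acinar cells held 0 calls in edgeR (0, 1, 1, 2, 2 and 0 at an unadjusted p under 0.05, in DESeq2 1 each of fibroblasts, endothelium and adipocytes, in limma-voom 0; 1 endothelial gene without NF152, 1 adipocyte gene without NF17).

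Esr1, the estrogen receptor gene, was the called increase of smallest p, with 4.54, 3.04, 3.44 and 6.64 CPM in controls and 57.1, 61, 46.9 and 59.4 CPM in mutants (log2 fold change 3.62, SE 0.21, BH-adjusted p = 4.61e-07). It was also higher in the mutant duodenum (log2 fold change 3.89, SE 0.30). The transgene codes for a recombinase fused to a ligand-binding domain of the estrogen receptor, which mutants alone carry; its part in these counts was not tested. Of 7 tested genes of the estrogen receptor list Esr1 was the only one called, and Vil1, the gene whose promoter drives the transgene, was at 2867 ± 398 CPM in controls and 2714 ± 151.6 in mutants (BH-adjusted p = 0.837).

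The change with genotype was then set against that in the duodenum of the same animals, with the difference tested over all 16 libraries. Of 15882 tested genes 7 differed (0.0441%), 6 of them with the ileal effect above the duodenal one, and 16 with the animal as a block, 6 of the 7 among them (all but Sis). Pla2g4c rose in the ileum as given above and was at 2.6 ± 2.04 CPM in control and 2.14 ± 1.42 CPM in mutant duodenum (duodenal change -0.21, SE 0.64; difference 6.60, BH-adjusted p = 0.0328, with block 0.00163). Sis was at 6521 ± 730.1 and 7733 ± 1284 CPM in the duodenum (difference 1.69, BH-adjusted p = 0.0262), and its call was lost with the block (BH-adjusted p = 0.0835). Slc16a6, a monocarboxylate transporter, rose in the ileum (19.1, 22.2, 21 and 20.7 CPM in controls, 42.1, 59.4, 60.4 and 41.4 in mutants) and had a duodenal change of 0.048 (difference 1.26, BH-adjusted p = 0.0135).

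Dao, which degrades D-amino acids, had 6.32, 4.03, 6.17 and 5.76 CPM in control and 11.6, 16.8, 14.2 and 13.9 CPM in mutant ileum, against a duodenal change of -0.59 (difference 1.94, BH-adjusted p = 0.00488). Reg4, a lectin of secretory cells, had 245, 112, 191 and 188 CPM against 477, 481, 435 and 251 CPM in the ileum, where it was not called by itself (BH-adjusted p = 0.0756), and a duodenal change of -1.39 (difference 2.56, BH-adjusted p = 0.0262). In 2 genes the duodenum was called by itself and the ileum was not. Trpa1, an irritant channel, was at 2.29, 1.67, 2.43 and 4.2 CPM in control and 3.91, 2.48, 1.6 and 3.22 CPM in mutant ileum. Its duodenal change was -3.52 (difference 3.59, BH-adjusted p = 0.00403). Which cells supplied it in the ileum was not tested. Mgat4c, a glycosyltransferase, was at 729 ± 102 CPM in control and 691 ± 64.9 CPM in mutant ileum, with a duodenal change of 2.70 (difference -2.78, BH-adjusted p = 0.000819). Mgat4c kept its call without any 1 animal; Trpa1 and Dao lost it only without NFVCT38, and Sis, Reg4, Pla2g4c and Slc16a6 in 5 to 7 of the 8 such fits, so that 1 to 9 genes were called. Pla2g4c also lost it with limma-voom and Reg4 without the filter on low counts.

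**Figure D5:**
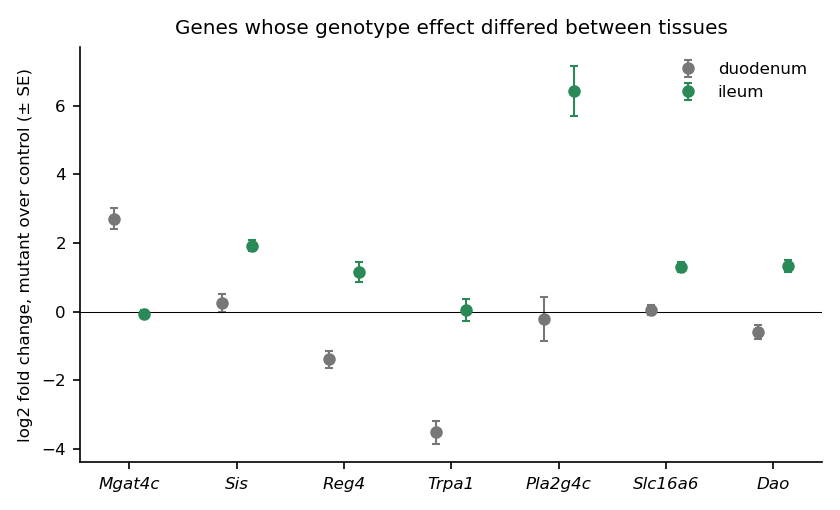
Log2 fold change of mutant over control with its SE (y axis) in the duodenum (grey) and the ileum (green) for the 7 genes whose genotype effect differed between the tissues (x axis). Pla2g4c, Sis and Slc16a6 lie near 0 in the duodenum and above it in the ileum, Reg4 and Dao point in opposite directions, and Mgat4c and Trpa1 lie near 0 in the ileum.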

How the data were processed

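Gene counts of stranded RNA libraries, prepared after removal of ribosomal RNA and amplified by PCR (per the labels' protocols), were deposited by the authors as 1 table of whole-number counts per gene, with 55359 genes and 16 libraries and no normalization. STAR 2.5.3a, HTSeq 0.6.1p1, Bowtie2 2.2.8, cutadapt 1.10, bcl2fastq 2.20.0.422 and the build mm39 are named in the submitters' processing notes. The sources used here do not give the annotation and the strand setting of the counting. A symbol was found for 52083 gene IDs (98.3% of counts), and 68 IDs share a symbol with a more abundant one. No row was other than a gene.

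edgeR 4.0.16, under R 4.3.3, fitted the 8 ileal libraries (TMM, filterByExpr, robust quasi-likelihood test, prior count 0.125), with Benjamini-Hochberg adjustment over all genes tested and a threshold of 0.05. The difference between tissues was an interaction over all 16 libraries. Replicates are separate animals, and p-values measure the spread between them. Ileum and duodenum came from the same animals: the deviations of an animal's pair correlated at 0.127 to 0.327, and 7 of 8 animals correlated best with themselves (NF32 at 0.191 against 0.218 with another). Total counts set the precision: a gene with 0 counts is placed below 3 counts over its group, and exact 95% intervals cover counting error only.

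Named genes were Neurog3, Chgb, Chga and the endocrine hormone and factor lists, in each direction the 15 called genes of largest change (mean CPM of at least 1, no overlap, no predicted genes, pseudogenes or receptor segments), and of each other list up to 6 called members of smallest p and 3 abundant ones not called, beside up to 10 genes that differed between tissues. Members and the 55 lists were chosen with earlier results of these data known. Alternatives were DESeq2 1.42.0, limma 3.58.1 (voom), other scalings and filters, all 16 libraries in 1 fit, a smooth muscle covariate, each library left out and the animal block; the acinar covariate was added after seeing the data. The scripts were tested on simulated data. Results for a few members of the lists are not reported here, though they count in the totals.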

Additional observations from a re-analysis of the deposited data

Results flagged for a closer look

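In 29 of 407 sets of 4 values (7.13%) 1 library stood apart. The gap to its nearest neighbour took up more of the group's range than Dixon's 95% limit for 4 values. For normally distributed values, which low counts are not, chance alone gives about 1 in 20. Among controls NF29 was the highest for Reg3b (20751 CPM), Reg3g (11523 CPM), Pigr (6046 CPM), Cx3cr1 (27.4 CPM) and Spdef (24.9 CPM) and the lowest for Pam (90.1 CPM). NF152 was the highest for Slc10a2 (1760.3 CPM), Ces1g (20.3 CPM) and Hhex (2.997 CPM) and the lowest for Pfkp (344 CPM) and Tgtp2 (2.95 CPM). NF32 was the highest for Gbp5 (11.7 CPM) and Etv1 (11.6 CPM), and NF17 for Syt7 (35.4 CPM).

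Among mutants NFVCT27 was the highest for Pkm (799.8 CPM), Itgae (30.1 CPM) and Tacr1 (14.0003 CPM) and the lowest for Dpp4 (898 CPM) and Cyp2d9 (1.01 CPM). NFVCT153 was the lowest for Slc10a2 (1008 CPM) and Cfap61 (3.08 CPM). NFVCT38 was the highest for Il18 (135.9 CPM), and NFVCT190 for Slc28a2 (71.6 CPM) and Tcrg-C1 (2.30 CPM). In 5 endocrine genes a single mutant library held all the reads, so that the gap filled the whole range whatever its size. These were Cck in NFVCT153 (0.123 CPM), Ffar1 in NFVCT27 (0.126 CPM), Gcg in NFVCT190 (0.0575 CPM), and Ghrl (0.0671 CPM) and Neurod1 (0.134 CPM) in NFVCT38.

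For some genes the genotype effect differed between ileum and duodenum in the edgeR test of the difference itself, without the animal as a block. They were Pla2g4c (6.60 on the log2 scale, ileum minus duodenum), Trpa1 (3.59), Reg4 (2.56), Dao (1.94), Sis (1.69), Slc16a6 (1.26) and Mgat4c (-2.78).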

How the results depend on the processing

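The 490 ileal calls became 878 with DESeq2 (490 of them shared) and 1096 without a filter on low counts (484 shared), where more genes were tested, and 22 with the smooth muscle covariate (20 shared), for which the cause was not tested. They ranged from 272 to 472 when 1 library was left out, with fewer samples in the fit. limma-voom, other scalings, a stricter filter, a fit of all 16 libraries and the acinar covariate gave 332 to 541. The 7 genes that differed between tissues became 16 with the animal as a replicate block and 15 without the filter, and ranged from 1 to 9 when 1 animal was left out; RLE scaling gave 7 and limma-voom 6. Within the ileum no paired analysis was possible because no animal gave libraries of both genotypes. No named gene reversed its direction in a fit where it was called. Of 148 called genes named, 94 kept the call in every fit without 1 library that tested them and 17 in all fits and settings. Depth limits genes of few counts, such as Neurog3, whose mutant counts of 0 allow a lower bound only.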

Other observations

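The genes in this paragraph and the next were chosen after their values were seen. Egln3, an oxygen sensor, had 16.4, 27.4, 22.1 and 20.8 CPM in controls and 119, 76.8, 101 and 42.9 CPM in mutants (log2 fold change 1.98, SE 0.33, BH-adjusted p = 0.0222). Ak4, an adenylate kinase, had 1.36, 2.65, 1.82 and 2.12 CPM against 6.43, 2.95, 3.95 and 4.77 CPM (log2 fold change 1.20, SE 0.29, BH-adjusted p = 0.0359). Adm, the adrenomedullin gene, had 2.4, 3.93, 3.44 and 2.81 CPM against 7.06, 9.46, 5.67 and 6.5 CPM (log2 fold change 1.23, SE 0.22, BH-adjusted p = 0.00808). Hif1a, the oxygen-regulated factor itself, went from a control range of 124 to 145 CPM to a mutant range of 136 to 244 CPM, with overlap (BH-adjusted p = 0.0436). Fkbp5, a binding partner of steroid receptors, had 109, 98.8, 124 and 126 CPM against 273, 248, 139 and 195 CPM (log2 fold change 0.90, SE 0.19, BH-adjusted p = 0.026). Tsc22d3 had 55.8, 59.5, 64.7 and 68.8 CPM against 109.9, 95.6, 67.2 and 98.2 CPM (log2 fold change 0.58, SE 0.14, BH-adjusted p = 0.0337). The chaperone gene Hsp90aa1 had 151, 119, 126 and 100.2 CPM against 79, 84.9, 98 and 62.3 CPM (log2 fold change -0.62, SE 0.15, BH-adjusted p = 0.0361) and was called with the smooth muscle covariate as well (BH-adjusted p = 0.0169). Adm kept its call without any 1 library, while Egln3 and Fkbp5 lost theirs in 5 of the 8 such fits, Ak4, Tsc22d3 and Hsp90aa1 in 6 and Hif1a in 7 (NF17 and NF32 among them for each).

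Glycogen and glycerol genes were called too. Gbe1, the glycogen branching enzyme, had 26.6, 22.7, 31 and 36.2 CPM in controls and 56.8, 65.2, 57.9 and 55.9 CPM in mutants (log2 fold change 1.01, SE 0.14, BH-adjusted p = 0.000968). Gpd1, which makes glycerol 3-phosphate, had 297, 264, 254 and 264 CPM against 438, 433, 366 and 376 CPM (log2 fold change 0.58, SE 0.10, BH-adjusted p = 0.00763). Around amines, Slc6a4, the serotonin transporter, had 64.1, 50.9, 49.4 and 57.4 CPM against 84.6, 78.2, 82 and 83.8 CPM (log2 fold change 0.56, SE 0.11, BH-adjusted p = 0.00919). Maoa, which breaks down serotonin, had 1032, 664, 869.7 and 946 CPM against 593, 502, 448 and 604 CPM (log2 fold change -0.71, SE 0.14, BH-adjusted p = 0.0147). Aoc1, which breaks down histamine, had 1397, 804, 1158 and 1084 CPM against 582, 670.5, 697 and 812 CPM (log2 fold change -0.69, SE 0.16, BH-adjusted p = 0.0284). Ccr2, a chemokine receptor of monocytes, had 17.9, 15.6, 19.2 and 15.3 CPM against 6.18, 9.93, 7.89 and 10.5 CPM (log2 fold change -0.96, SE 0.17, BH-adjusted p = 0.0072). Maoa lost its call without NF17 or NFVCT38 and Aoc1 in 6 of the 8 fits without 1 library.

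The remaining lists held few calls. Citrulline, proline and arginine metabolism had 2 of 17 members higher (Prodh and Dao), the villus tip list 2 of 16 (Slc28a2 and Creb3l3) and the circadian clock list 2 of 18 (Ciart and Bhlhe40), and each of these counts fell to 0 or 1 without some single library. Fatty acid oxidation had 1 of 27 higher (Creb3l3), the iron, copper and zinc list 1 of 15 (Epas1, called in 0 of the 8 fits without 1 library), the distal identity list 1 of 11 (Bcl2l15), the epithelium list 1 of 14 (Krt18), and the islet list its single tested member, Slc2a2. The proximal identity list had 1 of 11 lower (Dnah8) and the vitamin list 1 of 21 lower (Aldh1a1). Apart from Slc2a2, each of these single calls was lost in at least 5 of the 8 fits without 1 library. The genotypes overlapped in Bcl2l15, and the distal identity list had 4 changes above 0 and 7 below. Its summed level was 7641 to 9921 CPM in controls and 5886 to 7481 CPM in mutants, without overlap. The myeloid list had Siglecf higher and Cx3cr1 lower of 16, with 5.31, 3.44, 4.95 and 5.99 CPM of Siglecf in controls and 9.08, 16, 8.38 and 7.36 in mutants (lost in 6 of 8 fits without 1 library). Of 25 glycosyltransferases 2 rose and 1 fell: Gcnt3, which branches mucin glycans, had 289.6, 193, 239 and 246 CPM in controls and 902, 804, 534 and 618 CPM in mutants (log2 fold change 1.56, SE 0.17, BH-adjusted p = 0.000242), St3gal6 rose (0.89, BH-adjusted p = 0.00651) and Gcnt1 fell (-1.32, BH-adjusted p = 0.00426). The list of the unfolded protein response held 0 calls of 20 in edgeR (7 at an unadjusted p under 0.05, 3 higher in DESeq2 and 0 in limma-voom; 3 higher without NFVCT153).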
